A study of Danio rerio with 6 samples.

Results

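The transcription factors described here are 9 zebrafish (Danio rerio) genes of the GATA, NK2, HAND and MEF2 families that act in heart muscle. They are gata4, gata5, gata6, nkx2.5, hand2, mef2aa, mef2ca, mef2cb and mef2d, chosen as a named list and matched by symbol in the authors' deposited comparison table, which holds 33737 genes. All 9 are in that table. By identifier, 7 of them join to the deposited FPKM table (fragments scaled to gene length and to the fragments in the library) of 32105 genes. The identifiers given to gata4 and gata6 in the comparison table are not in the FPKM table. A gene name table pairs other identifiers there with these symbols (ENSDARG00000098952 with gata4 and ENSDARG00000103589 with GATA6), so the FPKM of these 2 genes are matched by name only.

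RNA came from 3 DN-MAML and 3 wild-type (WT) heart samples of adult TU-AB fish aged 6 to 12 months. DN-MAML fish carried Tg(hsp70l:DN-MAML), a dominant-negative Mastermind that blocks transcription by Notch, under a heat-inducible promoter that acts in many cell types. The study set out to find what Notch controls during heart regeneration. In both groups part of the heart was amputated, the fish were heated to 38 C for 1 h every day, and samples were taken at day 5. Whether a sample is 1 heart or a pool is not given in the sources used here, so the spread behind each p-value is that between the 3 samples of a group, which may be technical.

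GATA factors are zinc finger proteins, MEF2 factors are MADS-box proteins, NKX2.5 is a homeodomain protein and HAND2 is a basic helix-loop-helix protein. In the vertebrate embryo they form a network in which members bind the same enhancers, regulate each other and switch on contractile genes. In adult zebrafish, regulatory sequences of gata4 become active in cardiomyocytes that divide after injury.

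Depth per sample is unknown, because the files hold no counts per sample. Of the 12 cardiomyocyte markers, all were detected in every sample, with the atrial and ventricular light chain gene myl7 at 10942 to 15848 FPKM. Genes of the mitochondrial genome (13) took 25.5% to 31.0% of all FPKM in DN-MAML samples and 22.4% to 28.2% in WT samples. WT replicate 1 stood apart: over all genes tested its profile correlated at 0.978 with DN-MAML replicate 2, and at 0.975 and 0.977 with WT replicates 2 and 3, which correlated at 0.984 with each other. In bulk tissue, fewer cells of a type and less RNA per cell cannot be told apart.

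All 9 factors were expressed in every sample, and in both groups hand2 had the highest level and mef2cb the lowest. Over the 16556 genes that reached a mean of 0.5 FPKM (the minimum for a test), their levels ranked from the 76.7th percentile (mef2cb) to the 96.0th (hand2). In DN-MAML samples the order of mean levels was hand2 (97.6 FPKM), gata5 (93.5), nkx2.5 (89.2), mef2ca (59.1), gata6 (58.2), mef2d (33.7), gata4 (28.5), mef2aa (26.6) and mef2cb (16.1). In WT samples it was hand2 (116 FPKM), nkx2.5 (104), gata5 (75.2), gata6 (73.2), mef2ca (70.2), mef2aa (36.4), mef2d (27.4), gata4 (25.7) and mef2cb (14.5). Neighbours in these orders often overlapped over the 3 samples. In DN-MAML the ranges were separate only between nkx2.5 and mef2ca, gata6 and mef2d, and mef2aa and mef2cb. In WT they were separate between nkx2.5 and gata5, mef2ca and mef2aa, mef2aa and mef2d, and gata4 and mef2cb. The place of mef2aa differed: it was below mef2d in each of the 3 DN-MAML samples and above mef2d in each of the 3 WT samples.

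**Figure D1:**
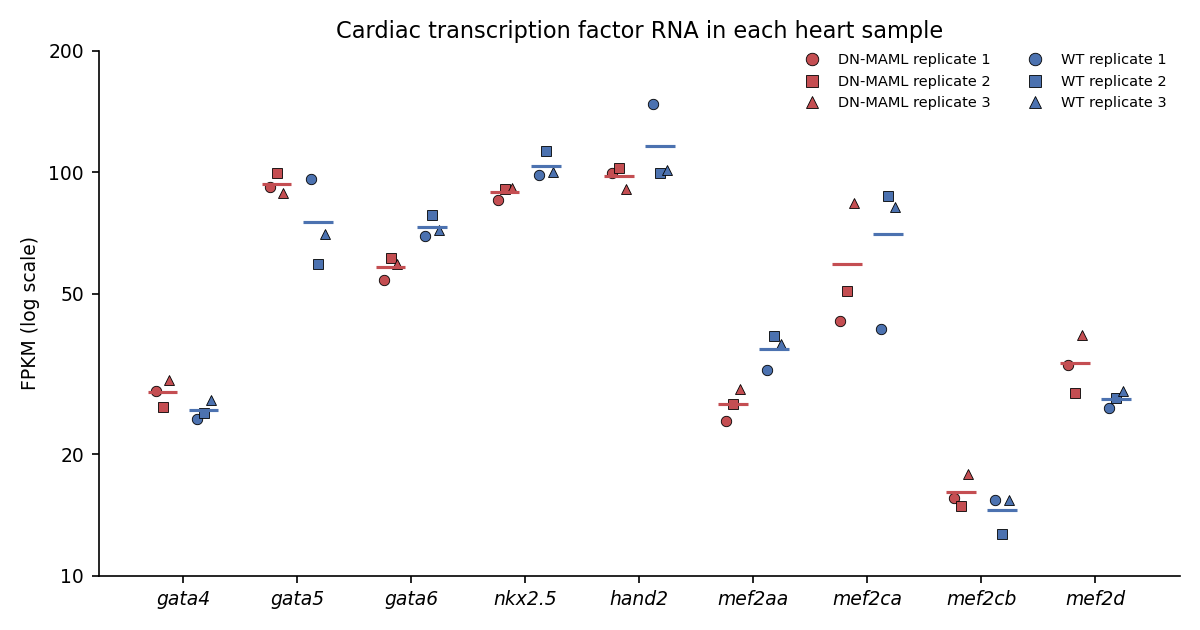
FPKM (log axis) of the 9 factors in each sample, DN-MAML in red and WT in blue, with a symbol for each replicate number and a line at the group mean. The samples of the groups are separate for gata6, nkx2.5 and mef2aa, and WT replicate 1 lies away from the other WT samples for gata5, hand2 and mef2ca.

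Differences between DN-MAML and WT were tested with limma on log2(FPKM + 0.5), adjusting over all 16556 genes. In limma the spread of each gene is also drawn toward that of genes at a similar level. None of the 9 factors passed an adjusted p of 0.05, where 0.0966% of all genes did (0.0423% as lower). Without WT replicate 1 none of the 9 passed either, where 1.09% of all genes did. At an unadjusted p under 0.05 there were 2 of 9 (gata6 and mef2aa, both lower), where 13.2% of all genes were (6.23% as lower). The authors' deposited table calls 1 of 9, mef2aa, as lower, where it calls 4.38% of the 18217 genes with an adjusted p (2.27% as lower). The groups did not overlap for 3 of 9 (gata6, nkx2.5 and mef2aa, all lower), where 18.8% of all genes did not overlap with 8.98% lower and 9.83% higher. The change was negative for 5 factors and positive for 4, the median log2 change was -0.21, and that of all genes tested was 0.03. The authors' deposited table gives the same direction for each factor, with a log2 change of 0.28 for gata5, 0.11 for gata4, -0.28 for nkx2.5, -0.25 for hand2, -0.34 for mef2ca, 0.05 for mef2cb and 0.25 for mef2d, none of them called (adjusted p from 0.224 for nkx2.5 to 0.875 for mef2cb).

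**Figure D2:**
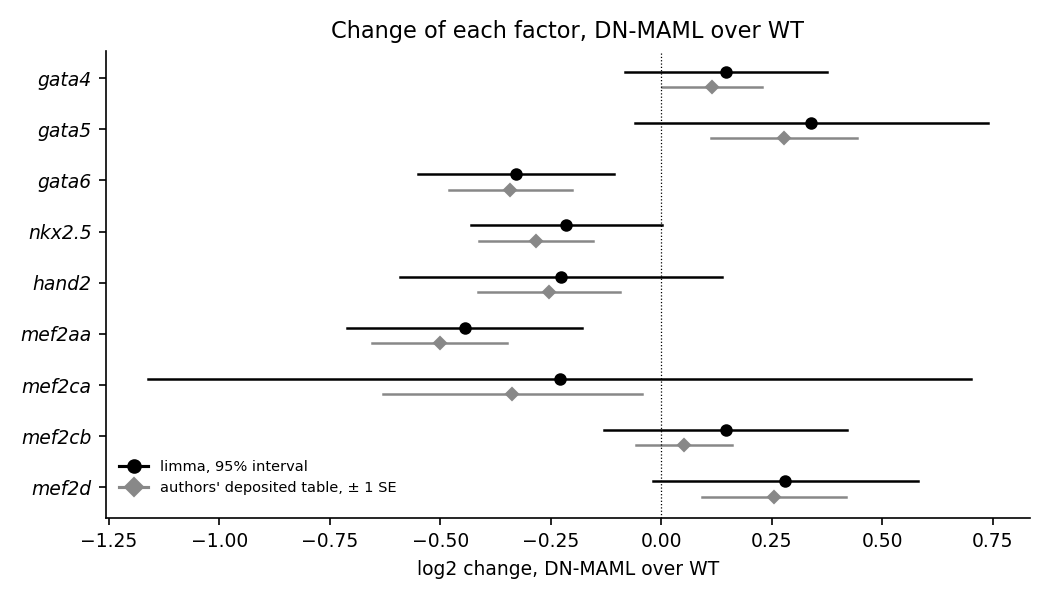
Log2 change of each factor, DN-MAML over WT. Black points are limma estimates with 95% intervals, and grey diamonds are the values of the authors' deposited table with 1 standard error on each side. The limma interval lies below 0 for gata6 (-0.55 to -0.11) and mef2aa (-0.71 to -0.18) and is widest for mef2ca (-1.16 to 0.70).

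Of the GATA factors, gata6 had a negative change in DN-MAML and gata5 and gata4 had positive ones, and none of the 3 passed. The gene gata6, which acts with gata5 in forming the zebrafish heart, had 54.07, 61.19 and 59.33 FPKM in DN-MAML replicates 1, 2 and 3, and 69.47, 78.40 and 71.83 FPKM in the WT replicates. Every DN-MAML sample was below every WT sample. On the log2 scale gata6 differed by -0.33 (SE 0.10; limma, adjusted p = 0.244). Its change in the authors' deposited table is -0.34 (adjusted p = 0.148).

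The gene gata5, known in zebrafish from the faust mutant with its defects of heart and endoderm, had 91.84, 99.79 and 88.91 FPKM in the DN-MAML replicates and 96.45, 59.10 and 70.15 FPKM in the WT replicates. WT replicate 1 lay among the DN-MAML samples, and the other WT samples lay below all of them. For gata5 the log2 change was 0.34 (SE 0.17; limma, adjusted p = 0.435). Without WT replicate 1 it was 0.53 (limma, adjusted p = 0.0913), and the groups then did not overlap, as for 37.2% of all genes in that setting. Without WT replicate 2 it was 0.18 (limma, adjusted p = 0.713). The spread between replicates was 25.5% of the mean in WT and 6.02% in DN-MAML.

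The gene gata4 had 28.77, 26.13 and 30.57 FPKM in the DN-MAML replicates and 24.49, 25.30 and 27.23 FPKM in the WT replicates. The groups overlapped through DN-MAML replicate 2 and WT replicate 3. For gata4 the log2 change was 0.15 (SE 0.10; limma, adjusted p = 0.551), with a 95% interval of -0.08 to 0.37, and 0.09 without DN-MAML replicate 3. Its level, per length, was the lowest of the 3 GATA factors in every sample.

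Because FPKM are per length, the 3 GATA factors can be summed within a sample, and their shares do not move with library scaling. The share of gata6 was 31.0%, 32.7% and 33.2% in the DN-MAML replicates and 36.5%, 48.2% and 42.5% in the WT replicates. No DN-MAML sample reached the lowest WT sample. The exact two-sided permutation test gave p = 0.1, the smallest that 3 against 3 samples allow, and an adjusted p of 0.4 over the 4 shares tested. The share of gata5 averaged 51.9 ± 1.90% in DN-MAML and 42.8 ± 7.27% in WT (SD, n = 3 each; exact permutation p = 0.2, adjusted p = 0.4). It was 50.7% in WT replicate 1, above the 49.7% of DN-MAML replicate 3. The difference in the gata5 share, 9.07 percentage points, was 12.997 without WT replicate 1 (exact permutation p = 0.1) and 5.82 without WT replicate 2 (exact permutation p = 0.2). Here 0.1 is again the smallest p that the samples left, 3 against 2, allow. The share of gata4 averaged 15.8 ± 1.66% in DN-MAML and 14.8 ± 1.73% in WT (SD, n = 3 each; exact permutation p = 0.5), a difference of 1.01 percentage points that was 0.027 without WT replicate 1. The sum rests on gata4 and gata6 being matched by name. The 3 shares make up the whole of this sum, so they depend on each other and their tests are not separate results.

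**Figure D3:**
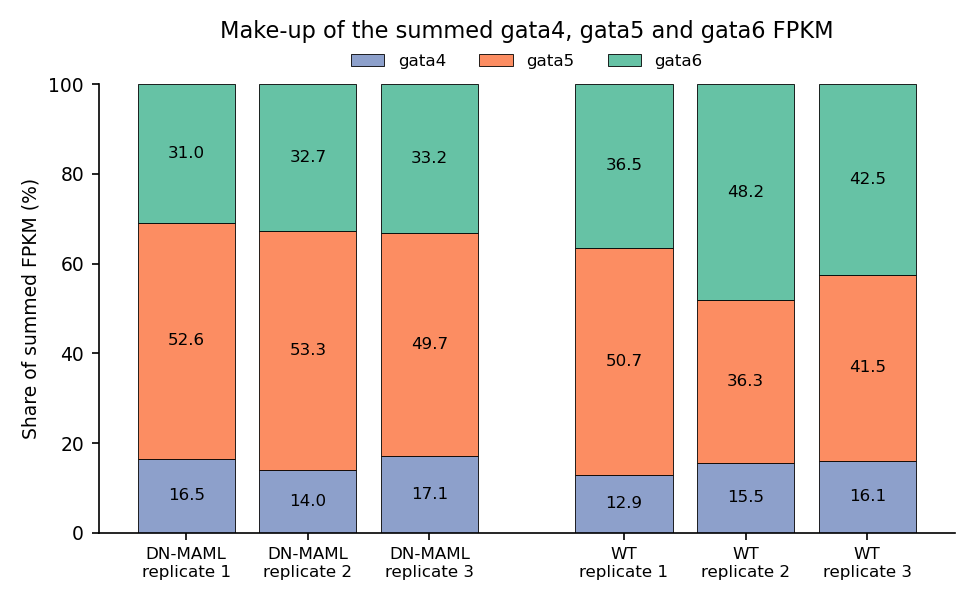
Share of gata4, gata5 and gata6 in their summed FPKM (%) in each sample, DN-MAML samples on the left and WT samples on the right. The share of gata6 is 31.0% to 33.2% in DN-MAML samples and 36.5% to 48.2% in WT samples.

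As ratios, gata5 over gata6 was 1.70, 1.63 and 1.5 in the DN-MAML replicates and 1.39, 0.754 and 0.977 in the WT replicates. gata4 over gata6 was 0.532, 0.427 and 0.515 in the DN-MAML replicates and 0.353, 0.323 and 0.379 in the WT replicates. Neither ratio overlapped between the groups. Other ratios did overlap. gata5 over gata4 was 2.91 to 3.82 in DN-MAML samples and 2.34 to 3.94 in WT samples. nkx2.5 over hand2 was 0.859 to 1.00 in DN-MAML samples and 0.668 to 1.13 in WT samples. All these ratios were chosen after the values were seen and carry no test.

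The homeodomain factor nkx2.5, which in zebrafish keeps ventricular identity together with nkx2.7, had 85.50, 90.92 and 91.28 FPKM in the DN-MAML replicates. It had 98.49, 112.86 and 99.96 FPKM in the WT replicates. The groups did not overlap, and the replicates were close, with a spread of 3.63% of the mean in DN-MAML and 7.62% in WT. This gave a log2 change of -0.21 (SE 0.09; limma, adjusted p = 0.381). After quantile normalization the change was -0.12 and the groups overlapped.

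The gene hand2, known from the zebrafish hands off mutant, which forms too few heart muscle cells, had 99.54, 102.33 and 91.04 FPKM in the DN-MAML replicates. It had 147.45, 99.76 and 101.23 FPKM in the WT replicates. WT replicate 1 was far above the rest, and WT replicates 2 and 3 lay within the DN-MAML range. A log2 change of -0.23 (SE 0.16; limma, adjusted p = 0.564) became -0.04 without WT replicate 1.

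Among the MEF2 factors mef2aa was on the lower side in DN-MAML and mef2d on the higher side, with no factor passing in limma. The gene mef2aa, of the MEF2A type, had 24.15, 26.70 and 28.98 FPKM in the DN-MAML replicates and 32.29, 39.35 and 37.62 FPKM in the WT replicates. Every DN-MAML sample was below every WT sample. For mef2aa the log2 change was -0.44 (SE 0.11; limma, adjusted p = 0.207), the largest in size of the 9 in limma with all samples. In the authors' deposited table mef2aa has a log2 change of -0.50 (standard error 0.15, adjusted p = 0.0303). The call therefore rests on which table is used, and both come from the same 6 samples. Without WT replicate 1 the limma change was -0.53 (adjusted p = 0.0888). It was -0.38 without DN-MAML replicate 1 (limma, adjusted p = 0.438) and -0.42 without WT replicate 3 (limma, adjusted p = 0.462).

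The gene mef2d, of the MEF2D type, had 33.23, 28.40 and 39.48 FPKM in the DN-MAML replicates and 25.99, 27.62 and 28.68 FPKM in the WT replicates. DN-MAML replicate 2 lay below WT replicate 3, and the other DN-MAML samples lay above all WT samples. The log2 change was 0.28 (SE 0.13; limma, adjusted p = 0.401), and 0.16 without DN-MAML replicate 3. The ratio of mef2aa over mef2d, chosen after the values were seen, was 0.727, 0.940 and 0.734 in the DN-MAML replicates and 1.24, 1.42 and 1.31 in the WT replicates. It was under 1 in each DN-MAML sample and over 1 in each WT sample.

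The gene mef2ca, which with mef2cb is needed for heart muscle cells to form in zebrafish, was the most variable of the 9. It had 42.68, 50.77 and 83.89 FPKM in the DN-MAML replicates and 40.91, 87.54 and 82.09 FPKM in the WT replicates. DN-MAML replicate 3 was at the level of WT replicates 2 and 3, and WT replicate 1 was below all DN-MAML samples. The spread was 36.9% of the mean in DN-MAML and 36.3% in WT. The log2 change was -0.23 (SE 0.38; limma, adjusted p = 0.829), and -0.58 without WT replicate 1 (adjusted p = 0.373) or -0.51 without DN-MAML replicate 3 (adjusted p = 0.732). Leaving out WT replicate 2 gave -0.033 and leaving out WT replicate 3 gave -0.079, while leaving out DN-MAML replicate 1 gave -0.027 and DN-MAML replicate 2 gave -0.15.

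The gene mef2cb had 15.56, 14.85 and 17.89 FPKM in the DN-MAML replicates and 15.39, 12.72 and 15.44 FPKM in the WT replicates. The groups overlapped, with a log2 change of 0.15 (SE 0.12; limma, adjusted p = 0.625), which was 0.056 when WT replicate 2 was left out and 0.070 when DN-MAML replicate 3 was. The share of mef2ca in the sum of mef2ca and mef2cb was 73.3%, 77.4% and 82.4% in the DN-MAML replicates and 72.7%, 87.3% and 84.2% in the WT replicates. The difference was -3.69 percentage points (exact two-sided permutation p = 0.5), and -8.05 without WT replicate 1 or -0.72 without WT replicate 2. In every sample mef2ca was the more abundant of the pair, by 2.66 times in WT replicate 1 to 6.88 times in WT replicate 2. How reads shared by these similar genes were counted is not given in the sources used here.

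**Figure D4:**
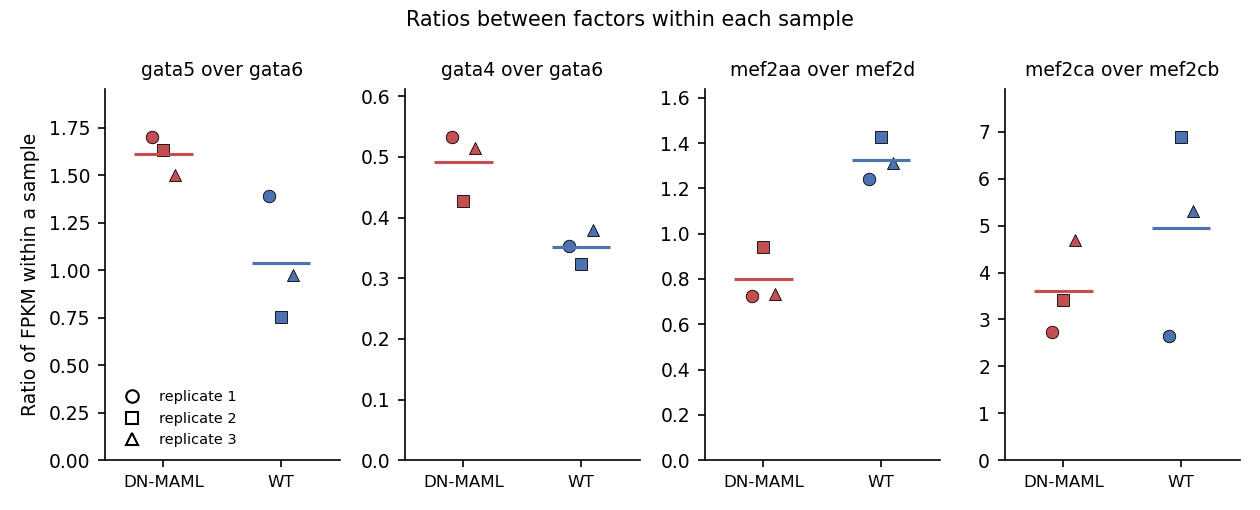
Ratios of FPKM between factors within each sample, DN-MAML on the left of each panel and WT on the right, with a line at the group mean and axes from 0. The groups are separate for gata5 over gata6, gata4 over gata6 and mef2aa over mef2d, and overlap for mef2ca over mef2cb.

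Markers of heart muscle were also slightly lower in DN-MAML, so the factors were set against them. These markers are themselves listed among genes of the kind the factors switch on, so they are not a reference independent of the factors. Of 12 cardiomyocyte markers, 9 had a negative change, and their median log2 change was -0.18. The groups did not overlap for 5 of 12 (all lower), where 18.8% of all genes did not (8.98% as lower). None of these markers passed in limma, where 0.0966% of all genes did. Their summed level was 36128 to 44303 FPKM in DN-MAML and 42557 to 50951 FPKM in WT. Their mean log2 level was 8.84, 9.03 and 8.85 in the DN-MAML replicates and 9.06, 9.22 and 8.97 in the WT replicates, a difference of -0.18. The part of this difference in the results was not tested.

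The mean of these markers in a sample was subtracted from all 9 factors, so the marker difference of -0.18 was taken from each change alike. The order of the 9 changes is therefore as before, and only the spread between samples could differ by factor. Relative to these markers, nkx2.5 differed by -0.04 on the log2 scale (exact permutation p = 0.6), against -0.21 before. The level of gata6 differed by -0.15, with every DN-MAML sample below every WT sample (exact permutation p = 0.1). For mef2aa the difference was -0.27, and DN-MAML replicate 3 (-3.96) then lay above WT replicate 1 (-4.02; exact permutation p = 0.2). For gata5 it was 0.52, with -2.31, -2.38 and -2.36 in the DN-MAML replicates and -2.46, -3.32 and -2.83 in the WT replicates. These groups did not overlap (exact permutation p = 0.1), and the gata5 difference was 0.72 without WT replicate 1 and 0.29 without WT replicate 2. It was 0.46 for mef2d, 0.33 for gata4 and 0.33 for mef2cb (exact permutation p = 0.2, 0.2 and 0.3), and -0.05 for both hand2 and mef2ca (p = 0.8 and 1). Over the 9 relative levels, the lowest adjusted p was 0.36, and 3 against 3 samples cannot go below 0.1 before adjustment.

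Other genes of the same families, and gatad2ab and gatad2b listed with them, were expressed at lower levels, and none passed. Of 17 listed relatives, 15 were matched and 7 were tested. Of the 7, 6 were on the higher side, gatad2ab and gatad2b among them (log2 changes 0.02 and 0.16). There were 0 non-overlapping, where 18.8% of all genes did not overlap. The median log2 change of the 7 was 0.03, near the 0.03 of all genes. The smallest p belonged to gata1a, the master regulator of red blood cells. It had 4.01, 3.91 and 6.19 FPKM in the DN-MAML replicates and 5.79, 8.18 and 8.24 FPKM in the WT replicates (log2 change -0.61, SE 0.20; limma, adjusted p = 0.284). Erythroid markers were lower beside it in limma in 12 of 12 genes tested (gata1a among them), and none passed. Their summed levels were 5802 to 8878 FPKM in DN-MAML and 9214 to 16557 FPKM in WT. The authors' deposited table calls ba1 (log2 change -1.12, adjusted p = 5.33e-05) and ba1l (-1.05, adjusted p = 0.000251) lower, where it calls 2.27% of all genes lower. For hbaa2 it gives a positive change of 0.03. These 3 genes are named after their values were seen. The part of red blood cells in the gata1a values was not tested. gatad2b, a subunit of the NuRD chromatin complex, had 3.05, 2.85 and 3.21 FPKM in the DN-MAML replicates and 2.4, 3.03 and 2.58 FPKM in the WT replicates, with a log2 change of 0.16 (limma, adjusted p = 0.606). The partner of nkx2.5 in the ventricle, nkx2.7, was under the minimum level for a test, at 0.64, 0.69 and 0.27 FPKM in the DN-MAML replicates and 0.27, 0.18 and 0.11 FPKM in the WT replicates.

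Partners and regulators of these factors showed no shared direction. Of 45 entries tested, 27 had a positive and 18 a negative change, and the median was 0.06 on the log2 scale. The gene mkl2b (log2 change -0.02, overlapping) is also listed as mrtfbb, so these entries count it more than once. None passed in limma. An unadjusted p under 0.05 was found for 4 of the 45 entries, where 13.2% of all genes had one. The groups did not overlap for 8 of the 45 entries (5 higher and 3 lower), where 18.8% of all genes did not. The smallest p belonged to smarcd3b, the BAF60C subunit of a chromatin remodelling complex that in mouse works with GATA4 and TBX5. It had 34.75, 32.58 and 31.97 FPKM in the DN-MAML replicates and 54.23, 42.93 and 42.21 FPKM in the WT replicates. The log2 change was -0.47 (SE 0.12; limma, adjusted p = 0.196), and in the authors' deposited table it is -0.48 (adjusted p = 0.0144). hopx, a small homeodomain protein of heart muscle that does not bind DNA, had 19.20, 21.88 and 20.85 FPKM in the DN-MAML replicates. In the WT replicates hopx had 16.65, 17.02 and 16.76 FPKM (log2 change 0.29, SE 0.09; limma, adjusted p = 0.270). For hopx the authors' deposited table gives a log2 change of 0.15 (adjusted p = 0.623). Of the 50 entries of this list with an adjusted p, the authors' deposited table calls 1 higher and 1 lower (smarcd3b). It calls 4.38% of all genes with an adjusted p (2.27% as lower). The higher one is the muscle histone methyltransferase smyd1b (log2 change 0.64, adjusted p = 0.0386). It was not matched to the FPKM table and is named after its value was seen.

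Heart muscle genes of the kind these factors switch on had a negative change in 33 of 46 tested (all 12 cardiomyocyte markers are in this list), and the median was -0.11 on the log2 scale. None passed in limma. An unadjusted p under 0.05 was found for 12 of 46 (11 lower and 1 higher), where 13.2% of all genes had one (6.23% as lower). The groups did not overlap for 14 of 46 (13 lower and 1 higher), where 18.8% of all genes did not (8.98% as lower). Ventricular myosin vmhc had 175, 179 and 241 FPKM in the DN-MAML replicates and 295, 316 and 346 FPKM in the WT replicates (log2 change -0.70, SE 0.14; limma, adjusted p = 0.144). The muscle caveolin cav3 had 50.09, 65.72 and 51.45 FPKM in the DN-MAML replicates and 76.21, 85.96 and 93.19 FPKM in the WT replicates (log2 change -0.61, SE 0.13; limma, adjusted p = 0.167). Neither gene overlapped between the groups. The authors' deposited table calls 6 of the 47 genes of this list with an adjusted p lower and 0 higher, where it calls 2.27% of all genes lower. They are vmhc (log2 change -0.71, adjusted p = 0.000389), cav3, acta1b, myom1a, fhl2a and xirp1, of which the last 4 are named after their values were seen. The peptide hormone gene nppa, a textbook target of GATA4 and NKX2.5 in mammals and also named after its values were seen, overlapped between the groups. It had 2000, 2334 and 1488 FPKM in the DN-MAML replicates and 1946, 1829 and 2207 FPKM in the WT replicates (log2 change -0.06; limma, adjusted p = 0.909).

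**Figure D5:**
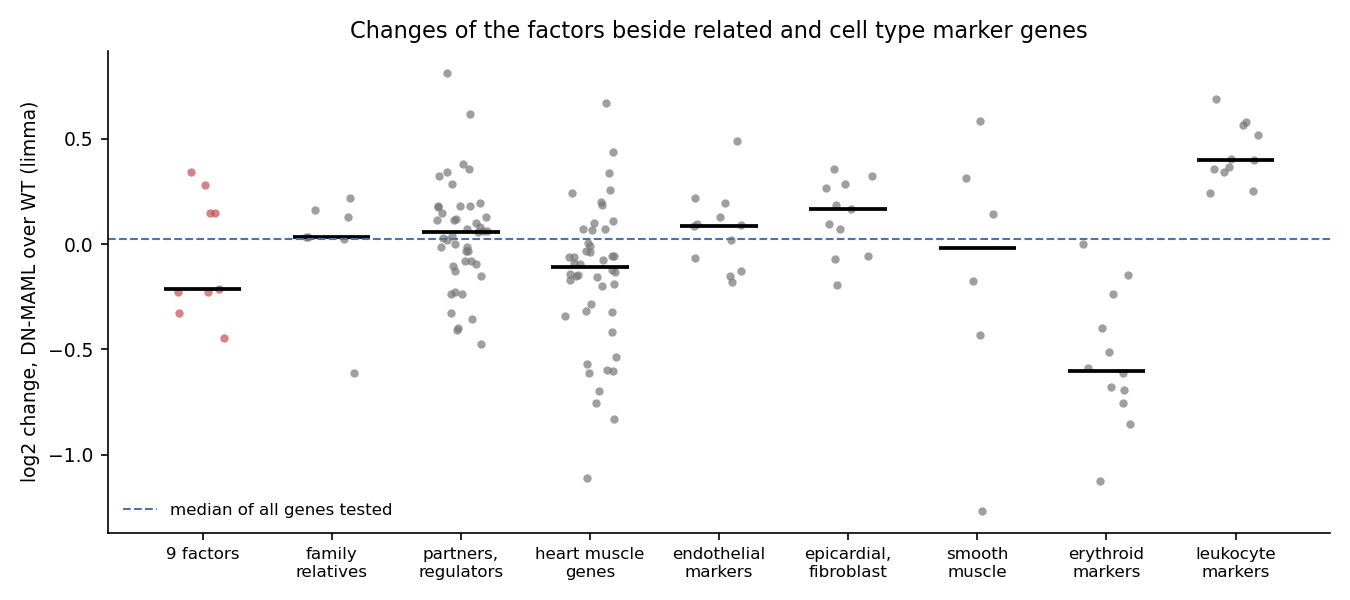
Log2 change in limma, DN-MAML over WT, of the 9 factors (red) and of each tested gene of the related and cell type marker lists (grey), with a black line at each median and a dashed line at the median of all genes. The median is -0.21 for the factors, -0.11 for heart muscle genes, -0.60 for erythroid markers and 0.40 for leukocyte markers.

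Several of these factors are also used outside heart muscle, such as hand2 in epicardium and gata4 and gata6 in several heart lineages. Endothelial and endocardial markers had a median log2 change of 0.09 (12 tested, 8 higher; -0.01 without WT replicate 1), with summed levels of 305 to 394 FPKM in DN-MAML and 293 to 364 FPKM in WT. Epicardial and fibroblast markers had a median of 0.17 (11 tested, 8 higher; 0.25 and 11 higher without WT replicate 1) and sums of 1259 to 1735 FPKM in DN-MAML and 1028 to 1809 FPKM in WT. The highest sum was in WT replicate 1, the WT sample with the highest gata5 and hand2. Among DN-MAML samples the sum was highest in replicate 1 (1735 FPKM, against 1431 FPKM in replicate 2). There gata5 and hand2 were highest in replicate 2 (99.79 and 102.33 FPKM). Smooth muscle markers had a median of -0.02 (6 tested, 3 higher and 3 lower; 0.15 without WT replicate 1) and sums of 233 to 283 FPKM in DN-MAML and 362 to 460 FPKM in WT. Among them the log2 change was -1.27 for acta2 and -0.43 for tagln, and 0.59 for elnb, 0.31 for pdgfrb and 0.14 for myh11a. The remaining lower one was notch3, with a log2 change of -0.22 in the authors' deposited table (adjusted p = 0.468). Leukocyte markers were higher in 11 of 11 tested, with sums of 638 to 821 FPKM in DN-MAML and 462 to 649 FPKM in WT. The groups did not overlap for 5 of these 11 (all higher), where 18.8% of all genes did not (9.83% as higher). With all samples, no tested gene of these 4 lists passed in limma, and no matched one was listed at 0 in all samples. The smooth muscle marker cnn1b and the fibroblast marker postnb were not matched to the FPKM table, so limma did not test them. The authors' deposited table calls acta2 (-1.31, adjusted p = 2.68e-07), cnn1b (-1.19, adjusted p = 3.67e-15) and postnb (-0.55, adjusted p = 0.0379) lower and cd79b (1.12, adjusted p = 0.0350) higher. Genes with an adjusted p there were 12 endothelial, 12 epicardial and fibroblast, 7 smooth muscle and 10 leukocyte markers. Of the endothelial markers 0 were called. That table calls 4.38% of all genes with an adjusted p (2.27% as lower). Genes of these lists are named after their values were seen. The part of these cell types in the levels of the 9 factors was not tested. Without WT replicate 1, 4 genes of all these lists passed in limma, named after their values were seen. In that setting 1.09% of all genes tested passed (180 genes, against 16 with all samples). The 4 list genes were the coactivator cited4b (log2 change 1.26), cardiac troponin tnnc1a (-0.78), the actin-binding gene xirp1 (-1.20) and smooth muscle actin acta2 (-1.48).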

How the data were processed

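The submitters' processing notes name DESeq2, featureCounts, STAR, cutadapt and FastQC, without roles or versions. Genome build and annotation: not given in the sources used here. Deposited by the authors were FPKM per gene and sample, rounded to 0.01, and a comparison table. Its log2 fold change and standard error, its score (change over standard error), its p-value, adjusted p-value and mean normalized count carry, per the file headers, DESeq2's column names. Positive changes are higher in DN-MAML.

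Here limma 3.58.1 (R 4.3.3; trend, robust, no block) compared log2(FPKM + 0.5) for genes with a mean of at least 0.5 FPKM, with Benjamini-Hochberg adjustment over all genes; the added 0.5 makes changes of low genes smaller. Shares and levels relative to cardiomyocyte markers used exact permutation tests. Python 3.11.15, pandas 2.3.3 and matplotlib 3.10.9 made tables and figures. List genes were matched by identifier or, failing that, by gene name table.

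The 9 factors and all lists were chosen with earlier results of these data known. Named genes are the 9 factors, up to 4 called genes of each related list or else the 2 with the smallest p, and the gene most alike to each factor.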

Additional observations from a re-analysis of the deposited data

How the results depend on the processing

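Each of the 9 log2 changes kept its direction under all 15 limma alternatives (pseudocount, filter, scaling, robust estimate, block, mitochondrial genes left out, a sample left out) and in the authors' deposited table, and none passed in limma; the adjusted p ranged from 0.0888 to 0.462 for mef2aa and from 0.157 to 0.477 for gata6. In the authors' deposited table mef2aa passed (-0.50). Leaving out a sample moved the change to between 0.18 and 0.53 for gata5, -0.32 and -0.04 for hand2, -0.58 and -0.03 for mef2ca, 0.056 and 0.20 for mef2cb, 0.16 and 0.40 for mef2d, and 0.09 and 0.21 for gata4. Relative to cardiomyocyte markers, hand2 (-0.21 to 0.15), mef2ca (-0.39 to 0.16) and nkx2.5 (-0.081 to 0.013) changed sign when a sample was left out, and the cause was not tested. The count of non-overlapping factors was 3 to 7 without a sample (7 without DN-MAML replicate 2, where 31.0% of all genes did not overlap), 5 after quantile normalization (2 lower and 3 higher, namely gata4, mef2cb and mef2d, where 21.0% of all genes did not overlap) and 2 over the 7 factors joined by identifier (18.8% of all genes). Over the settings without a sample, 25.9% to 37.2% of all genes did not overlap. Genes called over the whole table were 16, with 9 at a minimum of 2 FPKM, 10 after quantile normalization, 4 to 180 without a sample (180 without WT replicate 1) and 797 in the authors' deposited table. With the replicate number as a block 0 genes passed, the lowest adjusted p among the factors being 0.158 (mef2aa). Same-numbered samples deviated together in 2 of 3 pairs (correlations of 0.208, -0.026 and 0.140), and not every sample was closest to its own number, so the numbers were not taken as pairs. The alternatives on overlap, on the lists without WT replicate 1 and on mitochondrial genes were chosen after seeing the data. Depth is unknown.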

Other observations

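For each factor, the gene with the most similar profile over the 6 samples was looked up among 10227 genes with a mean of at least 2 FPKM. Genes without a symbol, or with a clone-style or placeholder name, were left out. The matches are descriptions with no test, since the highest of so many correlations over 6 samples is high by construction. The gene closest to gata5 was znf1160 (r = 0.998), with 2.34, 2.66 and 2.31 FPKM in the DN-MAML replicates and 2.58, 1.36 and 1.66 FPKM in the WT replicates. It shares with gata5 the high value in WT replicate 1. The gene closest to hand2 was the actin gene actc1b (r = 0.973), with 1.82, 1.27 and 0.77 FPKM in the DN-MAML replicates and 6.43, 1.53 and 1.28 FPKM in the WT replicates, a likeness carried by WT replicate 1.

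The gene closest to nkx2.5 was mipep, a peptidase of the mitochondrion (r = 0.993), with 6.28, 7.14 and 7.10 FPKM in the DN-MAML replicates and 9.07, 11.46 and 8.97 FPKM in the WT replicates. The gene closest to mef2aa was hmbsa, an enzyme of heme synthesis (r = 0.995), with 11.41, 12.46 and 14.20 FPKM in the DN-MAML replicates and 15.43, 18.96 and 17.49 FPKM in the WT replicates. The others were pcmt for gata6 (r = 0.984), tsta3 for gata4 (0.992), cadps2 for mef2ca (0.992), cab39 for mef2cb (0.996) and pi4k2a for mef2d (0.991).

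Within the 4 MEF2 factors, summed after their values were seen and with no test, the share of mef2aa was 20.9%, 22.1% and 17.0% in the DN-MAML replicates and 28.2%, 23.5% and 23.0% in the WT replicates. The share of mef2d was 28.7%, 23.5% and 23.2% in the DN-MAML replicates and 22.7%, 16.5% and 17.5% in the WT replicates. Neither overlapped between the groups. Over the 6 samples, gata6 correlated at 0.971 with nkx2.5 and at 0.962 with mef2aa, and gata4 at 0.965 with mef2d, all as descriptions in which the groups and the libraries are shared.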
